A study of Mus musculus with 24 samples.

Results

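The genes followed here serve blastocoel formation: the water channel genes Aqp3, Aqp8, Aqp9 and Aqp11 and the sodium pump beta-subunit genes Atp1b1, Atp1b2 and Atp1b3. They were taken by symbol, 7 of the 37229 gene symbols in the count table, and all 7 were among the 15875 genes tested. Poly(A) RNA was measured by Smart-seq2 in 24 single mouse embryos of the ICR strain, all made by in vitro fertilization. Intact control embryos gave 4 libraries at the 8-cell stage, 5 at the morula stage and 3 at the blastocyst stage. Split embryos came from late two-cell embryos held in biopsy medium, whose blastomeres were parted by micromanipulation and grown 1 by 1 in a modified sodium hyaluronate gel, so the gel and the separation went together. There were 6 split morulae and 6 split blastocysts, each set from 3 sister pairs. A split embryo starts from a single blastomere of the pair, whereas a control keeps both. The labels name no batch, litter or sex and no source of the control replicates, so p-values take in no more than the scatter among these embryos, which may be technical.

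The mammalian blastocyst fills with fluid once its outer epithelium, the trophectoderm, pumps sodium across its basolateral membrane and water follows. The pump, Na+/K+-ATPase, pairs a catalytic alpha subunit with a glycosylated beta subunit that folds the alpha chain and carries it to the cell surface. Aquaporins let the water pass, and tight junctions keep the fluid from leaking back between cells. In mouse embryos Aqp3 protein is known from basolateral membranes and Aqp9 protein from the apical surface of the trophectoderm. Atp1b1 is the beta subunit that mouse embryos need for cavitation.

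Counts of both sisters of a pair were summed, which left 18 units. Levels are CPM, counts set to a fixed total per library with scaling by the trimmed mean of M values, given as mean ± SD over units. Log2 fold changes are given ± SE. A gene was called changed at an adjusted p under 0.05 in edgeR's quasi-likelihood F test, two-sided, with Benjamini-Hochberg adjustment over all 15875 genes. Total counts per library were 26282853 to 38514899 at the 8-cell stage, 13888842 to 19014808 in control morulae, 14146833 to 18852776 in split morulae, 11316911 to 12653788 in control blastocysts and 13439059 to 25228658 in split blastocysts. On these unscaled totals of single libraries, a count of 0 allowed a level of up to 0.0779 to 0.265 CPM. The shallowest libraries, the control blastocysts, carried the highest limits. Limits for scaled CPM and for summed pairs differ from these. The summed level of 10 trophectoderm markers ranged from 84.1 to 162 CPM at the 8-cell stage, 628 to 1139 in control morulae, 612 to 2119 in split morulae, 2526 to 3507 in control blastocysts and 5591 to 7105 in split blastocysts. All 10 were detected in the blastocyst groups, and Gata2 was at 0 in every 8-cell embryo. Of 7 inner cell mass and epiblast markers, Sox2 was at 0 at the 8-cell stage and all 7 were detected later. Their sums were 167 to 387 CPM at the 8-cell stage, 346 to 710 in control morulae and 302 to 556 in split morulae. In control and split blastocysts they were 321 to 514 and 378 to 525 CPM. Primitive endoderm markers, 5 genes, summed to 100 to 445 CPM at the 8-cell stage, 110 to 156 in control morulae and 133 to 196 in control blastocysts. In split morulae and split blastocysts they summed to 93.7 to 135 and 71.9 to 103 CPM. All 9 cumulus cell markers were at 0 in the 8-cell embryos and summed to at most 1.04 CPM elsewhere, and 6 fibroblast markers summed to at most 8.29 CPM. Of 6 blood and immune markers, Ptprc and Lyz2 were at 0 in every group, although the sum reached 68.8 CPM in 1 split morula pair.

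Promoter sequence is shown for the 3 members whose transcripts changed between the 8-cell and the morula stage, so that the gene that fell can be set beside the pair that rose. RefSeq's promoter table on GRCm38.p6 held 6 of the 7 members, and each line gives the 250 bases before the first annotated start, 5′ to 3′ on the gene's strand, with motif matches in capitals.
Aqp3: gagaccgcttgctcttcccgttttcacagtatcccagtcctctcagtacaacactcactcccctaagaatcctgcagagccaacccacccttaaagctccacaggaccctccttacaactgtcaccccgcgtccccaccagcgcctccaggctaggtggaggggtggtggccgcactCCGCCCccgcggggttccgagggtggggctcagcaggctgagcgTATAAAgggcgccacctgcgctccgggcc
Atp1b1: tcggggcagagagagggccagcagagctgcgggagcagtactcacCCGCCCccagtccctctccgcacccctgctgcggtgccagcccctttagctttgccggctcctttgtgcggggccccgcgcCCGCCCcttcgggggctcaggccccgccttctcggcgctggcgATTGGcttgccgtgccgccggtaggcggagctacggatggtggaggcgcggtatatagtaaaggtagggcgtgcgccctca
Atp1b3: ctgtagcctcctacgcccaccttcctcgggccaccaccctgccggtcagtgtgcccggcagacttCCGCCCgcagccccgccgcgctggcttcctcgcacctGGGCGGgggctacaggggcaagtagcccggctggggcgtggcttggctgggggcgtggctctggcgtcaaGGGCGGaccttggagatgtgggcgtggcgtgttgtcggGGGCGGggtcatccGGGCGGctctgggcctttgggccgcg
These windows lie at chr4:41098184-41098433 for Aqp3, chr1:164458356-164458605 for Atp1b1 and chr9:96364432-96364681 for Atp1b3, all on the minus strand. The motifs searched on both strands were the core promoter element TATAAA, the element CCAAT of NF-Y, the box GGGCGG of Sp and Klf factors, the site GGAATG of TEAD factors and the site GCCNNNGGC of AP-2 factors. The Aqp3 window held TATAAA 29 bases before the start and a reverse GGGCGG 73 bases before it. The Atp1b1 window held reverse GGGCGG 205 and 124 bases before the start and a reverse CCAAT 81 bases before it. The Atp1b3 window held GGGCGG 5 times, between 185 and 26 bases before the start, and its second annotated start held no match. Aqp8 held GGAATG 221 bases before its start, and the windows of Aqp9 and Aqp11 held no match to these letters. Of 32851 windows of 250 bases in the table, 12.4% held TATAAA, 33.8% CCAAT, 32.7% GGGCGG, 12.6% GGAATG and 13.7% GCCNNNGGC. These matches describe letters and not bound sites.

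From the 8-cell to the morula stage, 3 of the 7 members changed. Aqp3 and Atp1b1 rose, Atp1b3 fell, and the other 4 did not pass the test. Among all genes tested 24.9% were called in this comparison, 14.3% rising and 10.7% falling, and nothing particular to the members is read from 3 of 7 beside that share. The median log2 fold change was -0.03 over the 7 members and 0.09 over all genes. Of all genes 21.8% had units that did not overlap between these groups, and of the members Aqp3 and Atp1b1 did not. Each comparison that follows shares control or split units with another, so the values of the comparisons are set side by side and not counted as repeats.

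Aqp3 encodes an aquaglyceroporin, a channel for water and glycerol. In the 8-cell embryos it stood at 26.3, 1.84, 0.751 and 1.72 CPM. The control morulae held 277, 161, 206, 312 and 309 CPM, all above every 8-cell embryo. Aqp3 rose 32.9-fold, a log2 fold change of 5.04 ± 0.92 (edgeR adjusted p = 0.000839). One 8-cell embryo carried most of that group's signal, 891 counts against 51, 18 and 51 in the other 3. Without that embryo the log2 fold change was 7.45 and remained called. In whole embryos, fewer cells of a type and less RNA per cell cannot be told apart, and the trophectoderm marker sum was higher in every control morula than in any 8-cell embryo. These markers did not move as one. Krt8, Krt18, Gata3 and Id2 were higher in control morulae, at 195 ± 65.6, 262 ± 102, 210 ± 54.6 and 56.9 ± 38.3 CPM. Tfap2c was lower, at 58.4 ± 23.6 CPM against 91.7 ± 46.3 CPM in 8-cell embryos. Cdx2, Gata2, Eomes, Tfap2a and Elf5 had means of at most 2.65 CPM in control morulae. The part of these markers in the Aqp3 result was not tested.

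After the morula stage Aqp3 had no called change. Control blastocysts held 254, 156 and 156 CPM, within or just under the range of the control morulae, and the log2 fold change was -0.42 ± 0.82 (edgeR adjusted p = 0.828). Split morulae held 226, 159 and 79.4 CPM, of which 159 and 79.4 lay below every control morula. Split blastocysts held 150, 148 and 136 CPM, all below the 3 control blastocysts. Ordered by mean level, Aqp3 was 253 ± 66.7 CPM in control morulae, 189 ± 56.3 in control blastocysts, 155 ± 73.3 in split morulae, 145 ± 7.83 in split blastocysts and 7.65 ± 12.4 at the 8-cell stage. Neighbours in this order overlapped except split blastocysts and 8-cell embryos.

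**Figure D1:**
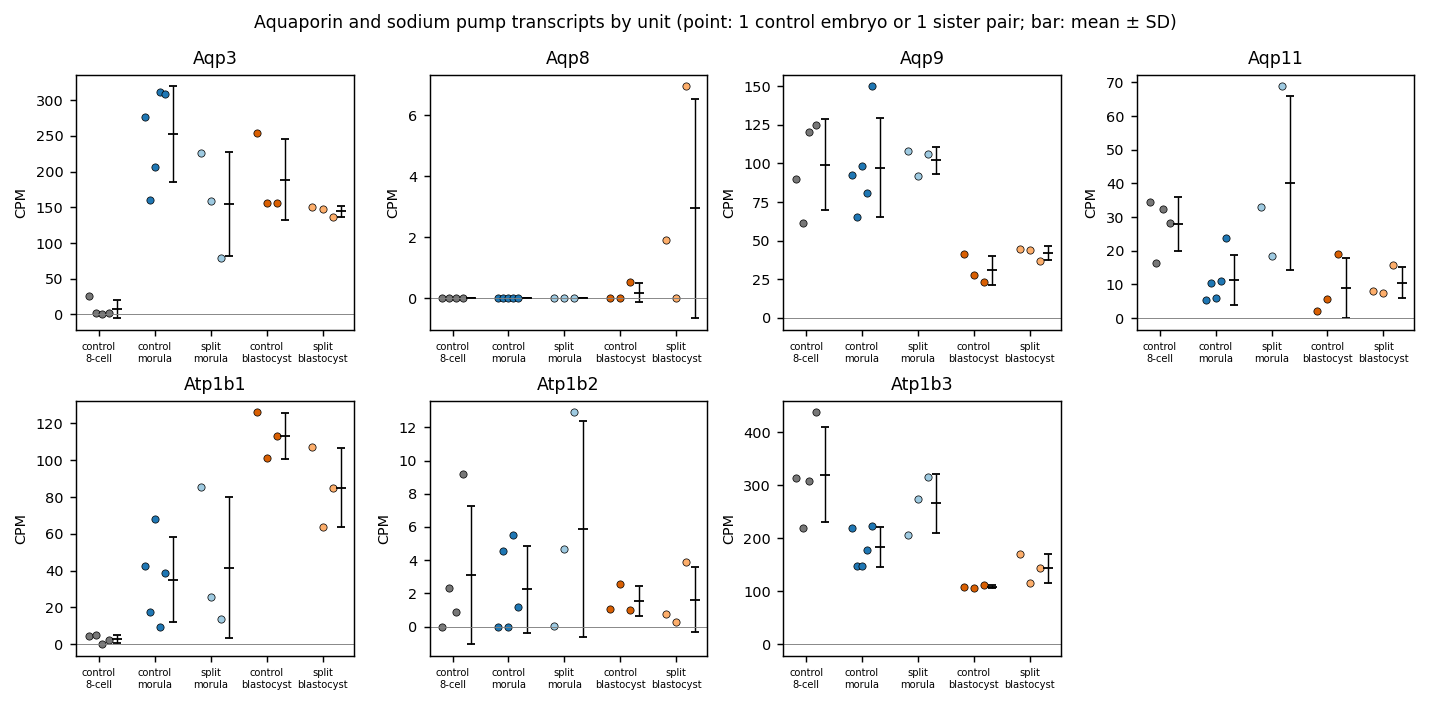
Level of each of the 7 members in CPM (y axis, linear) by group (x axis); a point is 1 control embryo or 1 summed sister pair and the bar is the mean ± SD. Aqp3 and Atp1b1 are near 0 at the 8-cell stage and high later, Atp1b3 and Aqp9 are lowest in the control blastocysts, and Aqp8 is above 0 only in 1 control blastocyst and 2 split blastocyst pairs.

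Aqp9, another aquaglyceroporin, also lets small neutral solutes such as urea pass. Its 8-cell levels were 89.9, 61.7, 120 and 125 CPM, and its control morula levels were 92.5, 65.2, 98.2, 80.7 and 150 CPM, a nearly complete overlap (log2 fold change -0.03 ± 0.26, edgeR adjusted p = 0.974). Control blastocysts held 41.5, 27.6 and 23.2 CPM, all below every morula. Aqp9 fell 3.17-fold from control morula to control blastocyst, by 1.66 ± 0.31 on the log2 scale (edgeR adjusted p = 0.000796), although limma-voom over the 24 embryos gave a log2 fold change of -1.6 that was not called (adjusted p = 0.0651). Split morulae held 108, 92.1 and 106 CPM and split blastocysts 44.8, 44.2 and 37.1 CPM. Within split embryos Aqp9 fell 2.43-fold (log2 fold change -1.28 ± 0.33, edgeR adjusted p = 0.0258), a call lost when any of 5 of the 6 sister pairs was left out, with the largest adjusted p, 0.139, without split blastocyst pair 3. By mean level Aqp9 was 102 ± 8.75 CPM in split morulae, 99.2 ± 29.5 at the 8-cell stage, 97.4 ± 32.2 in control morulae, 42 ± 4.3 in split blastocysts and 30.8 ± 9.53 in control blastocysts. In this order only control morulae and split blastocysts did not overlap. Aqp9 overlaps the antisense gene Gm32511 and the processed pseudogene Gm47268 in GENCODE M21. Strand was not marked in these libraries, so reads from any exon stretch they share cannot be told apart. Overlap was taken between whole genes, and overlap of exons was not examined. Gm32511 itself stood at 13.5 ± 5.49 CPM in control morulae and 5.55 ± 3.26 CPM in control blastocysts.

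Aqp11, a distant aquaporin of intracellular membranes, varied more between embryos of a group. The 8-cell embryos held 34.4, 16.5, 32.3 and 28.3 CPM, and the control morulae 5.34, 10.3, 5.92, 10.9 and 23.7 CPM. These groups overlapped, and the log2 fold change of -1.31 ± 0.59 was not called (edgeR adjusted p = 0.102). Without control morula 5, the highest of its group, it was -1.78 and called (edgeR adjusted p = 0.0395). Split morulae held 33.1, 18.4 and 68.9 CPM, and control and split blastocysts held 2.16, 5.73 and 19.1 CPM and 8.1, 7.57 and 15.9 CPM. The split morulae therefore reached above the control morulae but overlapped them at the low end. Ordered by mean, Aqp11 was 40.2 ± 26 CPM in split morulae, 27.9 ± 8.01 at the 8-cell stage, 11.2 ± 7.4 in control morulae, 10.5 ± 4.66 in split blastocysts and 8.99 ± 8.93 in control blastocysts, and every pair of neighbours overlapped.

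Aqp8, a water channel that also passes ammonia and hydrogen peroxide, had 0 counts in every 8-cell embryo, control morula and split morula. Control blastocysts held 0, 0 and 0.549 CPM, the last from 9 counts, and the split blastocyst pairs held 1.91, 0 and 6.96 CPM, from 79, 0 and 340 counts. It was not called in any comparison of the 18 units by edgeR, with adjusted p-values of 0.235 for control blastocyst against control morula, 0.189 for split blastocyst against split morula and 0.665 between the blastocyst groups. The step from split morula to split blastocyst was called in limma-voom over the 24 embryos (adjusted p = 0.00686), in limma on log2(TPM + 1) (adjusted p = 0.0443) and in edgeR with each split embryo as its own sample (adjusted p = 0.0317). The last of these fits takes sisters of a pair as independent embryos. In split blastocyst pair 3, 290 of the 340 counts came from 1 sister. Aqp8 was detected in blastocysts only, and in 3 of their 6 units.

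Atp1b1 encodes the beta-1 subunit of the pump. At the 8-cell stage it stood at 4.43, 5.02, 0 and 2.16 CPM, and in control morulae at 42.4, 17.6, 67.9, 9.16 and 38.5 CPM. Every morula lay above every 8-cell embryo. Atp1b1 rose 12-fold, a log2 fold change of 3.59 ± 0.89 (edgeR adjusted p = 0.00668). Control blastocysts held 126, 101 and 113 CPM, again above every morula, yet the log2 fold change of 1.69 ± 0.82 was not called (edgeR adjusted p = 0.213). The same step was called in a fit of the compared groups alone, at a log2 fold change of 1.69 and an adjusted p of 0.0251, and in limma on log2(TPM + 1), at 2.39 and an adjusted p of 0.00977. Split morulae held 85.2, 25.6 and 13.7 CPM and split blastocysts 107, 63.7 and 84.7 CPM. By mean level the order was 113 ± 12.6 CPM in control blastocysts, 85.2 ± 21.8 in split blastocysts, 41.5 ± 38.3 in split morulae, 35.1 ± 23 in control morulae and 2.9 ± 2.29 at the 8-cell stage. In this order only control morulae and 8-cell embryos did not overlap. Atp1b1 overlaps Nme7 on the opposite strand as a whole gene, and reads from any exon stretch they share cannot be told apart without strand. Nme7 stood at 9.2 ± 2.82 CPM at the 8-cell stage, 25.9 ± 4.57 in control morulae and 22.6 ± 6.6 in control blastocysts. The trophectoderm marker sums were also higher at each later control stage, although Tfap2c had its highest control mean at the 8-cell stage, 91.7 ± 46.3 CPM. The part of these markers in the Atp1b1 result was not tested.

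Atp1b3 encodes the beta-3 subunit, and over the control stages its mean level fell where that of Atp1b1 rose. The second of those rises of Atp1b1 was not called by edgeR, and both genes had higher means in split than in control morulae. The 8-cell embryos held 313, 219, 308 and 437 CPM and the control morulae 220, 148, 147, 177 and 223 CPM. One 8-cell embryo lay within the morula range and the other 3 lay above it. Atp1b3 fell 1.74-fold, by 0.8 ± 0.2 on the log2 scale (edgeR adjusted p = 0.00566). Control blastocysts held 108, 106 and 111 CPM, all below every morula, and the second step was a 1.69-fold fall (log2 fold change -0.76 ± 0.23, edgeR adjusted p = 0.0343). That second call was the less stable, since it was lost in 11 of 16 alternatives. On the log2(TPM + 1) scale, where the median of all genes was 0.37 against 0.11 with the trimmed mean of M values, its log2 fold change was -0.27 (limma adjusted p = 0.46). Leaving out control morula 1, 4 or 5 or any control blastocyst also ended it, with log2 fold changes of -0.68 to -0.78. Maternal oocyte transcripts, 7 markers, summed to 17.7 to 68.9 CPM at the 8-cell stage and 0.861 to 20.4 CPM in control morulae, and their part in the fall of Atp1b3 was not tested.

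In split embryos Atp1b3 stood at 206, 274 and 316 CPM in the morulae and 171, 116 and 143 CPM in the blastocysts, again without overlap. It fell 1.85-fold between these stages (log2 fold change -0.89 ± 0.25, edgeR adjusted p = 0.0457), and the call was lost in 8 of 14 alternatives, among them each split blastocyst pair left out (adjusted p = 0.0691 to 0.193) and split morula pair 2 or 3 left out (adjusted p = 0.105 and 0.188). Ordered by mean, Atp1b3 was 319 ± 89.7 CPM at the 8-cell stage, 265 ± 55.4 in split morulae, 183 ± 37.1 in control morulae, 143 ± 27.7 in split blastocysts and 108 ± 2.91 in control blastocysts. Only the last of these neighbours, the 2 blastocyst groups, did not overlap.

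Atp1b2, the beta-2 subunit best known from glia, was scarce and uneven. It stood at 0, 2.35, 0.876 and 9.17 CPM at the 8-cell stage and 0, 4.57, 0, 5.49 and 1.16 CPM in control morulae. Split morulae held 0.0642, 4.67 and 12.9 CPM, control blastocysts 1.04, 2.56 and 0.976 CPM and split blastocysts 0.749, 0.246 and 3.87 CPM. All groups overlapped, with means between 1.53 ± 0.896 CPM in control blastocysts and 5.87 ± 6.48 CPM in split morulae. It was not called in any comparison, and its fitted changes carried standard errors of 1.69 to 2.77 on the log2 scale.

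From control morula to control blastocyst, 2 of the 7 members changed, Aqp9 and Atp1b3, and both fell. Over all genes 10.6% were called in this comparison, 3.12% rising and 7.46% falling. The 496 rising and 1184 falling genes became 2684 and 836 in limma on TPM and 719 and 596 in limma-voom. The median log2 fold change was -0.42 over the members and 0.11 over all genes. Units did not overlap for 3 members, Aqp9, Atp1b1 and Atp1b3, and for 24.6% of all genes. From split morula to split blastocyst Aqp9 and Atp1b3 fell, against 4.17% of all genes called, 1.22% rising and 2.95% falling. The balance of 194 rising and 468 falling genes turned to 2107 and 782 in limma-voom and 859 and 521 in limma on TPM. The median log2 fold change was -0.89 over the members and 0.05 over all genes, and 3 members, Aqp9, Aqp11 and Atp1b3, had no overlap between groups, as did 27.4% of all genes. Aqp11 missed the threshold there at a log2 fold change of -1.93 ± 0.74 (edgeR adjusted p = 0.154), and Aqp3 and Atp1b1 gave -0.1 ± 0.9 and 1.04 ± 0.95 (adjusted p = 0.987 and 0.616). In limma-voom over the 24 embryos, Aqp11 and Atp1b1 were both called at this step, with log2 fold changes of -2.6 and 1.86 (adjusted p = 0.0433 and 0.0408), where the median of all genes was 0.51.

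**Figure D2:**
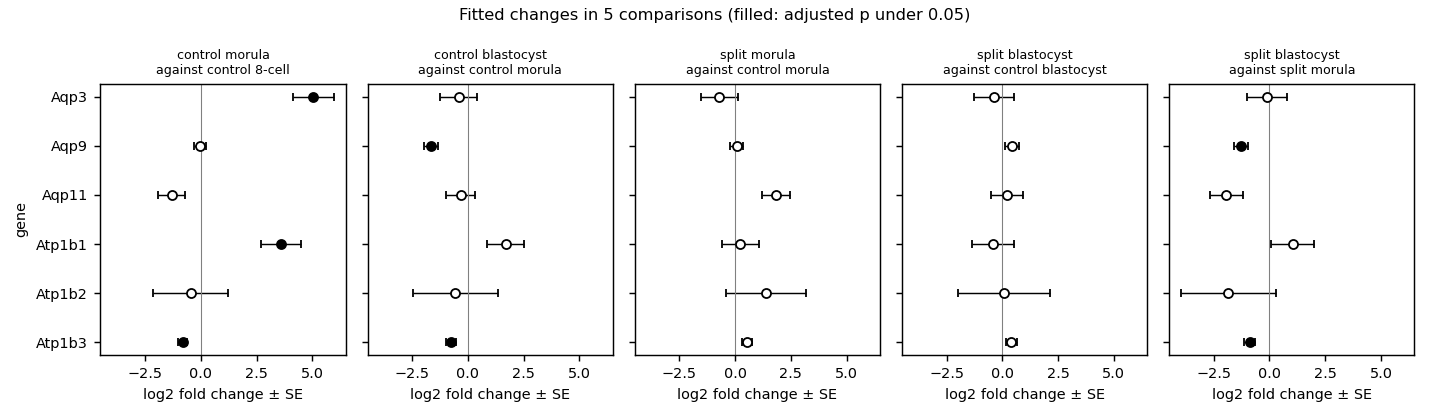
Fitted log2 fold change ± SE (x axis) of 6 members (y axis) in the 5 comparisons between groups; filled points have an edgeR adjusted p under 0.05. Filled points are Aqp3, Atp1b1 and Atp1b3 in the first panel and Aqp9 and Atp1b3 in the second and last panels, and the panels of split against control hold none. Aqp8 is left out because it is at 0 in most groups.

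The composition of each family was compared per transcript length, as shares of summed TPM. Among the beta subunits, Atp1b1 made up 1.08%, 1.74%, 0% and 0.377% at the 8-cell stage and 13%, 8.29%, 26.3%, 3.79% and 11.8% in control morulae. In control blastocysts its share was 47.4%, 42.1% and 43.9%, so Atp1b1 and Atp1b3 were then near parity, at 44.5% ± 2.68 and 55% ± 2.47 (SD, n = 3). At the 8-cell stage Atp1b3 alone had made up 98.7% ± 0.916 (SD, n = 4). Split morulae had Atp1b1 shares of 24%, 7% and 3.22%, inside or just under the control morula range. Split blastocysts had 32.6%, 30.2% and 31.7%, all below the control blastocysts. Summed beta-subunit TPM was 296 ± 101 at the 8-cell stage, 201 ± 43.9 in control morulae and 257 ± 26 in control blastocysts. These shares are descriptions with no test. The Atp1b1 share and the Aqp3 share given below stayed within 1 SD of their group means in all 40 alternatives tried. Most of these left out 1 unit, which cannot move a mean by 1 SD, so nothing is concluded from that.

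Among the aquaporins, Aqp3 made up 26.4%, 1.92%, 0.558% and 1.33% of summed TPM at the 8-cell stage. Its share was 84.7% ± 3.23 (SD, n = 5) in control morulae, 71.8% ± 13.3 (n = 3) in split morulae, 91.7% ± 1.34 (n = 3) in control blastocysts and 85.7% ± 1.87 (n = 3) in split blastocysts. The 8-cell pool was held instead by Aqp5, at 50% ± 16.5, and Aqp9, at 37.6% ± 6.32. Aqp5, a water channel of secretory glands, is one of 8 other aquaporins, 3 of which were tested. It stood at 38.4, 90.3, 106 and 94.1 CPM at the 8-cell stage and had at most 3 counts in every later unit, and it fell from 8-cell to control morula (edgeR adjusted p = 1.32e-07). The 8-cell embryo with the lowest Aqp5 level was the one with the highest Aqp3 level. The other 2 tested aquaporins of that list were not called in any comparison.

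**Figure D3:**
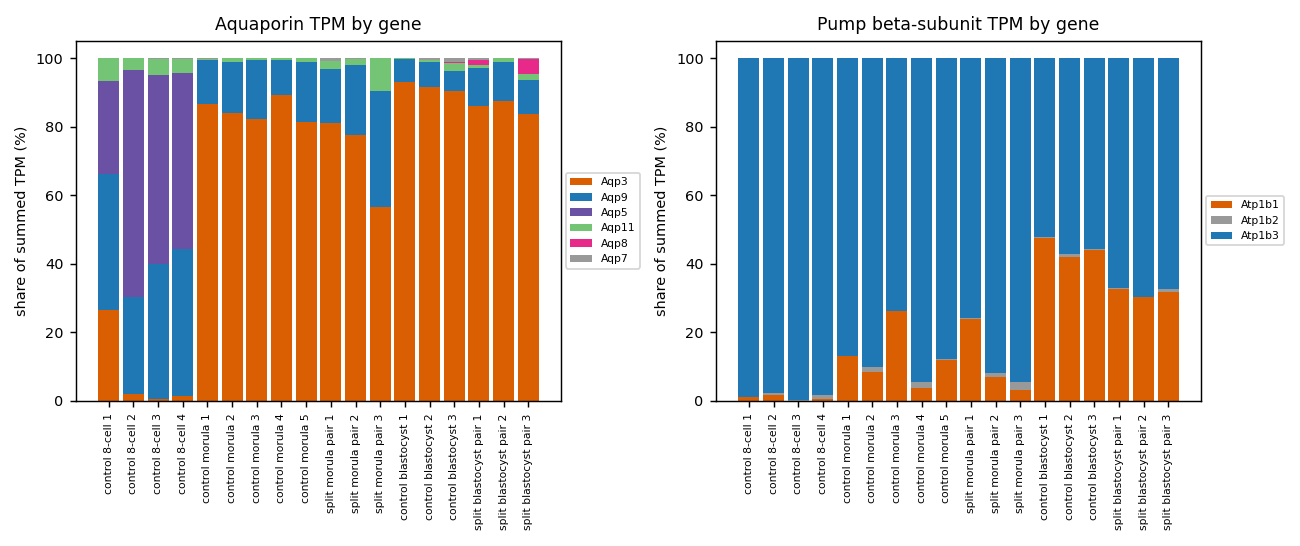
Share of summed TPM (y axis, percent) of each aquaporin (left) and each sodium pump beta subunit (right), with 1 stacked bar per control embryo or sister pair (x axis). Aquaporin TPM passes from Aqp5 and Aqp9 at the 8-cell stage to Aqp3 in all later units, and the Atp1b1 share is at most 1.74% at the 8-cell stage and 42.1% to 47.4% in control blastocysts.

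Splitting was asked of the members at both later stages. Between split and control morulae none of the 7 members was called by edgeR, nor by DESeq2 or limma, against 0.126% of all genes in edgeR, 0.0693% rising and 0.0567% falling. These 11 rising and 9 falling genes became 19 and 154 in limma-voom and 30 and 9 in limma on TPM. At an unadjusted p under 0.05 there were 2 members and 2377 genes in all. The members were Aqp11, with a log2 fold change of 1.84 ± 0.62 (unadjusted p = 0.00768, adjusted p = 0.227), and Atp1b3, with 0.53 ± 0.22 (unadjusted p = 0.0233, adjusted p = 0.286). Aqp3 gave -0.71 ± 0.83, Aqp9 0.07 ± 0.29 and Atp1b1 0.24 ± 0.83. No member had units that did not overlap, against 7.25% of all genes. The median log2 fold change was 0.24 over the members and 0 over all genes.

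Between split and control blastocysts none of the members was called by edgeR, DESeq2 or limma either, against 4.74% of all genes in edgeR, 3.42% rising and 1.32% falling. The 543 rising and 209 falling genes became 297 and 313 in limma-voom and 412 and 493 in limma on TPM. No member had an unadjusted p under 0.05 in edgeR, against 2411 genes in all. Aqp3 gave a log2 fold change of -0.38 ± 0.9 and Atp1b1 -0.41 ± 0.94. Atp1b3 gave 0.4 ± 0.25 (edgeR adjusted p = 0.489) and Aqp9 0.45 ± 0.32 (adjusted p = 0.599). Units did not overlap for Aqp3, lower in all 3 split pairs, and for Atp1b3, higher in all 3, and 31% of all genes had units that did not overlap. The trophectoderm marker sum was higher in every split blastocyst pair than in any control blastocyst, but its members did not move as one and none of the 10 was called by edgeR, with Krt18 alone at an unadjusted p under 0.05. Krt8 was 610 ± 179 CPM in control and 1766 ± 142 CPM in split blastocysts, and Krt18 was 824 ± 302 and 2603 ± 640 CPM. Tfap2a was 80.8 ± 24.7 and 20.3 ± 1.55 CPM, and Eomes 56.3 ± 14.1 and 29.6 ± 4.27 CPM. Their part in the values of Aqp3 and Atp1b3 was not tested. The split effect at the blastocyst minus that at the morula was not called for any member by edgeR, DESeq2 or limma, against 1.64% of all genes, 1.37% rising and 0.265% falling, with no member and 2272 genes at an unadjusted p under 0.05. The 218 rising and 42 falling genes became 45 and 69 in limma on TPM. For Aqp11 it was -1.61 ± 0.96 (edgeR adjusted p = 0.476). With these standard errors, differences of the size seen in Aqp3 or Atp1b1 were not detectable, which does not show that split and control embryos were alike.

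Sisters of a pair shared a two-cell embryo and could be compared gene by gene in TPM. Aqp3 stood at 255 and 369, 270 and 170, and 136 and 88.7 TPM in the 3 split morula pairs, and at 266 and 150, 307 and 143, and 250 and 159 TPM in the 3 split blastocyst pairs. Its sisters differed by a median of 0.65 on the log2(TPM + 1) scale, with a range of 0.54 to 1.09. The sisters' medians over 7659 genes with a mean of at least 5 TPM were 0.57, 0.53 and 0.76 in the morula pairs and 0.34, 0.55 and 0.32 in the blastocyst pairs. Aqp3 differed more than that median in all 3 blastocyst pairs and in split morula pair 2, and less in split morula pairs 1 and 3. As many genes lie above a median as below it, so nothing particular to Aqp3 is read from this.

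Atp1b1 gave the widest spread between sisters among the abundant members. In split morula pair 2 the sisters held 2.57 and 41.8 TPM, from 59 and 874 counts, a 12-fold difference of TPM + 1. The other morula pairs held 73.9 and 60.9 TPM and 7.11 and 16.6 TPM. Blastocyst pairs held 76.7 and 97.3, 90.2 and 27.1, and 70.9 and 75.4 TPM. In Atp1b3 and Aqp9 the sisters lay closer, with medians of 0.35 and 0.24 on the log2(TPM + 1) scale, although Aqp9 held 92.8 and 28.1 TPM in split morula pair 1. In split blastocyst pair 2 the same sister was higher in Aqp3, Aqp9, Aqp11, Atp1b1 and Atp1b3, and Aqp11 there held 4.78 TPM from 245 counts in that sister and 0.0158 TPM from 1 count in the other. Atp1b2 was lower in that sister, at 0 against 0.292 TPM. Over 7659 genes the sisters of this pair differed by a median of 0.55, against 0.34 and 0.32 in blastocyst pairs 1 and 3. The share of all genes higher in that sister was not counted, so nothing particular to the members is read from this. Atp1b2 was detected in 1 sister only in some pairs. It held 15.7 and 0 TPM in split morula pair 3 and 0 and 6.14 TPM in pair 2. Aqp8, where present, was detected in both sisters, with 4 and 17.7 TPM in split blastocyst pair 3 and 4.12 and 2 TPM in pair 1.

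**Figure D4:**
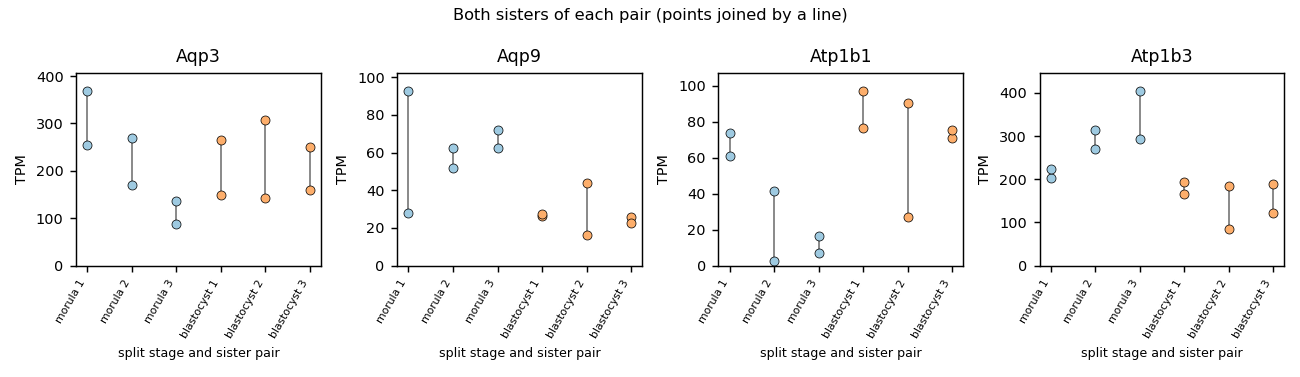
TPM (y axis, linear from 0) of Aqp3, Aqp9, Atp1b1 and Atp1b3 in both sisters of each split pair (x axis); points are single embryos and a line joins sisters. The lines are longest relative to level for Atp1b1 in morula pair 2 (2.57 and 41.8 TPM) and for all 4 genes among the blastocysts in pair 2.

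Genes with the most similar course over the 18 units were sought for each member, by the root mean square difference of centred log2 CPM. The search took genes whose mean log2 CPM was 3 or more and left out symbols of predicted genes, cDNA clones and pseudogenes. It covered 6207 genes, or 6208 for Aqp8 and Atp1b2. For Aqp3 these were Sema4b (0.82), Macroh2a1 (0.86) and Sulf2 (0.86), against a median of 2.73 over the genes searched. The genes named are the nearest of all searched and lie under the median by selection, so nothing is concluded from that contrast. Sema4b stood at 17.1 ± 18.7 CPM at the 8-cell stage and 317 ± 95.4 CPM in control morulae. For Atp1b1 they were B4galt1 (0.8), Mcur1 (0.89) and Abhd2 (0.93), against a median of 2.7. B4galt1, a galactosyltransferase, went from 13.3 ± 11.7 CPM at the 8-cell stage to 174 ± 54.2 in control morulae and 240 ± 43 in control blastocysts. For Atp1b3 the nearest were Ube2c (0.26), Srpk1 (0.27) and Wdr77 (0.28), against a median of 0.95. For Aqp9 they were Acadm (0.33), Nol11 (0.33) and Pold3 (0.34), against a median of 1.07. Atp1b3 and Aqp9 themselves varied little, with root mean squares of 0.59 and 0.77 about their own means, against 2.67 for Aqp3. Ube2c, a ubiquitin-conjugating enzyme of mitosis, held 524 ± 58.8, 355 ± 39.7 and 190 ± 18.6 CPM over the same control stages. Acadm, an enzyme of fatty acid oxidation, held 690 ± 135, 596 ± 54.5 and 213 ± 22.3 CPM. For Aqp11 they were Erdr1 (0.72), Prmt1 (0.73) and Zc3hc1 (0.78), against a median of 1.4. The nearest genes of the scarce Aqp8 (Mgarp, 1.25) and Atp1b2 (Gtf3c5, 1.82) lay farther from them, against medians of 2.02 and 2.49.

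The other genes of cavitation were counted from lists by role. From the 8-cell stage to the control morula, 9 of 21 tested genes of the paracellular seal and of polarity rose and 1 fell, with a median log2 fold change of 1.25 against 0.09 over all genes, of which 14.3% rose and 10.7% fell. Among them the tight junction adaptor Cgn rose from 15.5 ± 16.3 to 276 ± 88.2 CPM (edgeR adjusted p = 0.000217) and the claudin Cldn6 from 3.99 ± 7.79 to 92.7 ± 15.7 CPM (adjusted p = 0.0266). The scaffold Tjp1 fell from 67.2 ± 17.8 to 24.2 ± 14.4 CPM (edgeR adjusted p = 0.00374).

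From control morula to control blastocyst 2 of 13 tested trafficking and signalling genes were called, beside 10.6% of all genes. The kinases Rock2 and Yes1 rose, from 36.4 ± 17.3 to 119 ± 13.8 CPM and from 19.7 ± 7.22 to 52 ± 18.9 CPM (edgeR adjusted p = 0.00389 and 0.0361). Between split and control morulae 59 genes of 5 lists were tested (other aquaporins, other pump subunits, ion transport, seal and polarity, trafficking and signalling). None of them was called by edgeR, beside 0.126% of all genes. At an unadjusted p under 0.05 there were 12 of the 59, beside 2377 of all 15875 genes. With so few genes called in all, nothing particular to the lists is read from this.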

How the data were processed

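Smart-seq2 reads were primed with oligo(dT) and carried neither strand marks nor molecular identifiers, so floors cover counting error only. Per the submitters' processing notes, FastQC, MultiQC, cutadapt, HISAT2, featureCounts and edgeR were used with GRCm39, without versions. The annotation release, strand setting and treatment of reads with several matches are not given in the sources used here. The authors deposited raw read counts of 37229 gene symbols and TPM values of 15625 genes.

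The counts of sisters were summed, which gave 18 units in 5 groups. Genes passing filterByExpr (15875, minimum count 10) received TMM scaling factors and were tested in 1 robust quasi-likelihood fit with 13 residual degrees of freedom (edgeR 4.0.16, R 4.3.3). Alternatives used limma 3.58.1 and DESeq2 1.42.0. Deposited TPM served for shares within families and, with a pseudocount of 1, for sisters. The scripts were tested on simulated data. No 2 count columns were identical. Promoters came from RefSeq on GRCm38.p6, and overlaps from GENCODE M21.

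The members, lists and tests were chosen with earlier results of these data known. All members are reported. Results of some other genes of the pathway are not reported here. Lists are counted, and up to 4 called genes with the largest fold changes in each could be named. Each member was given its 3 most similar genes.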

Additional observations from a re-analysis of the deposited data

Results flagged for a closer look

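In 12 groups of 4 or 5 units, the highest or lowest unit was compared with the spread of its group, a check by which chance marks about 1 group in 20. Aqp3 in 8-cell embryo 1, at 26.3 CPM, stood far from the other 3 8-cell embryos, with a gap of 0.957 of the group's range.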

How the results depend on the processing

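Of 634 values of the members under alternatives, 562 kept their direction and side of the threshold, 25 lost the call, 9 gained one and 38 changed sign, none of them a called result. The calls of Aqp3, Atp1b1 and Atp1b3 from 8-cell to control morula held in all 17 alternatives. Share alternatives were added after seeing the data. A count of 0, as for Aqp8 in most units, allows a level of up to 0.265 CPM in the shallowest library, on its unscaled total. The causes of the changes below were not tested.

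Members called from control morula to control blastocyst numbered 2 in the reported fit, 0 in limma-voom, and 1 each with RLE size factors, with single split embryos and with the replicate block, and 1 to 2 when 1 unit was left out. From split morula to split blastocyst they numbered 5 in limma-voom, 1 with RLE size factors or the compared groups alone, and 0 to 1 with 1 unit left out.

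The count of all genes called moved by over 1.5 times as follows. From control morula to control blastocyst 1680 became 2572 in DESeq2, 3520 in limma on TPM and 1083 to 1524 with 1 unit left out. Between the morula groups 20 became 676 in DESeq2, 173 in limma-voom, 69 with no filter, 39 on TPM, 191 with single split embryos, 4 in the compared groups alone and 4 to 51 with 1 unit left out. Between the blastocyst groups 752 became 1407 in DESeq2, 2037 in the compared groups alone and 408 to 552 with 1 unit left out. From split morula to split blastocyst 662 became 1697 in DESeq2, 2889 in limma-voom, 1380 on TPM, 2205 with single split embryos, 413 in the compared groups alone and 292 to 632 with 1 unit left out. For the difference of split effects 260 became 874 in DESeq2, 114 on TPM, 391 with single split embryos, 392 in the compared groups alone, 169 with the replicate block and 108 to 225 with 1 unit left out. The median of all genes from control morula to control blastocyst was 0.11 with the trimmed mean of M values, 0.19 with RLE, 0.37 on TPM and 0.41 in limma-voom, where it was -0.36 between the morula groups and 0.51 from split morula to split blastocyst.

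Signs of uncalled log2 fold changes turned as follows. In limma-voom Atp1b2 gave 1.57 from control morula to control blastocyst, -0.69 and -1.6 between split and control at the morula and blastocyst, and 0.65 from split morula to split blastocyst, with Atp1b1 at -0.32 between the morula groups, Aqp11 at -0.32 between the blastocyst groups and Aqp3 at 0.02 from split morula to split blastocyst. On TPM Aqp9 gave 0.03 from 8-cell to control morula and -0.01 for the difference of split effects, Aqp3 0.04 from control morula to control blastocyst and 0.1 from split morula to split blastocyst, and Atp1b2 0.17 from control morula to control blastocyst and -0.24 between the blastocyst groups. With single split embryos Atp1b2 gave -0.09 between the blastocyst groups. With 1 unit left out, log2 fold changes ran from -0.24 to 0.1 (Aqp9) and -1.11 to 1.06 (Atp1b2) from 8-cell to control morula, -1.51 to 0.15 (Aqp11) and -1.15 to 0.09 (Atp1b2) from control morula to control blastocyst, -0.05 to 0.28 (Aqp9) and -0.82 to 0.66 (Atp1b1) between the morula groups, -0.23 to 1.42 (Aqp11) and -1.6 to 0.69 (Atp1b2) between the blastocyst groups, -0.41 to 0.28 (Aqp3) from split morula to split blastocyst, and -1.07 to 0.41 (Atp1b1), -2.99 to 0.02 (Atp1b2) and -0.31 to 0.02 (Atp1b3) for the difference of split effects.

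Replicate numbers did not pair the units: over 31 pairs of units with the same number the correlation of deviations ran from -0.03 to 0.08. With the replicate block Atp1b2 gave 2.42 from control morula to control blastocyst and -0.07 between the blastocyst groups, Atp1b1 -0.11 between the morula groups and Aqp3 0.12 from split morula to split blastocyst. Aqp11 from 8-cell to control morula was called with the replicate block, at -1.73 (edgeR adjusted p = 0.0422).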

Other observations

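Among the ion transporters of the outer cells, Slc12a2, a cotransporter of sodium, potassium and chloride, fell at every stage step. It stood at 523 ± 196 CPM in the 8-cell embryos, 118 ± 35 CPM in control morulae and 16.4 ± 4.31 CPM in control blastocysts, with log2 fold changes of -2.14 ± 0.41 and -2.85 ± 0.5 (edgeR adjusted p = 0.000673 and 0.000704). In split embryos it fell from 170 ± 101 CPM to 11.6 ± 7.36 CPM (log2 fold change -3.88 ± 0.55, edgeR adjusted p = 0.00035). Of the 12 tested ion transport genes, Slc12a2 alone fell into the control morula and 5 rose. Over all genes 10.7% fell and 14.3% rose in that comparison. Slc2a3, a glucose transporter, rose from 29 ± 3.89 to 176 ± 41.2 CPM (edgeR adjusted p = 0.000168). Atp2b1, a calcium pump of the plasma membrane, rose at both control steps, from 16.4 ± 4.88 to 34.7 ± 5.73 and 96.6 ± 19.1 CPM (edgeR adjusted p = 0.0167 and 0.00423).

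Between split and control blastocysts, 3 of the 59 tested pathway genes were called by edgeR, 1 rising and 2 falling, a share close to the 4.74% called over all genes. F11r, a junctional adhesion molecule, rose from 116 ± 10.5 to 303 ± 55.3 CPM (edgeR adjusted p = 0.0441). The kinase Yes1 fell from 52 ± 18.9 to 12.5 ± 1.3 CPM (edgeR adjusted p = 0.0169), and the kinase Rock1 fell from 242 ± 76.7 to 97 ± 32.9 CPM (adjusted p = 0.0309). From split morula to split blastocyst, the kinase Sgk1 fell from 193 ± 51.1 to 91.5 ± 27.3 CPM (edgeR adjusted p = 0.0272), and Fxyd6 had 0 counts in the split morulae and 11.2 ± 6.16 CPM in the split blastocysts (adjusted p = 0.0368).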
